A study of Mus musculus with 8 samples.

Results

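*Adam8*, a membrane-anchored metalloproteinase of the disintegrin family, was followed in macrophages loaded with acetylated low-density lipoprotein (Ac-LDL) together with 9 related genes: the sheddase *Adam17*, the matrix metalloproteinases *Mmp8*, *Mmp9*, *Mmp12*, *Mmp13*, *Mmp14*, *Mmp19* and *Mmp27*, and the inhibitor *Timp2*. The 10 genes were chosen by name, with the Ac-LDL results of these arrays already known, and every probe that carried a member's symbol was taken: 17 of the 45281 probes, for 10 of the 30789 gene symbols, on the array. Macrophages were elicited with thioglycollate from the peritoneum of 8 week old C57/BL6 mice and treated for 24 hours with Ac-LDL at 120 µg/ml or mock treated (control). There were 4 samples in each group, and both groups shared strain, age and elicitation. RNA was measured on Illumina Mouse WG-6 v2.0 bead chips. Per the study's methods, the cells were enriched by adherence and were not sorted, so the arrays hold whatever adhered with the macrophages. Whether the samples came from separate mice was not given, so the spread between samples may be partly technical.

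Ac-LDL is a modified lipoprotein that macrophages take up through scavenger receptors, which turns them into lipid-laden foam cells like those of the atherosclerotic plaque. MMPs and ADAMs are zinc-dependent proteases made as inactive precursors. The secreted MMPs cut collagen, elastin and other matrix components, while membrane-bound members such as MMP14 and the ADAMs work at the cell surface, where ADAMs release the outer parts of cytokines and receptors. TIMPs bind the active site of these enzymes and inhibit them. Macrophages are known as a source of MMP12, MMP9 and MMP13, and matrix loss in the fibrous cap is a textbook feature of plaque rupture.

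The arrays were even in depth. Each probe was read on a median of 43 to 44 beads, and 16679 to 17439 probes per array had a detection p-value of at most 0.05. The median deposited signal of detected probes was 121 to 149 intensity units per array, against 38.0 to 40.8 for undetected probes. Unless deposited signal is named, values are log2 intensities after background correction and quantile normalization. The arrays lay on 2 slides, with samples 1 and 2 of each group on slide 1 and samples 3 and 4 on slide 2. The first principal component held 50.2% of the variance. The slide and the set of sample numbers it holds cannot be told apart, while the numbers within a slide can. The macrophage label was checked with 12 marker symbols, of which 10 were tested. *Cd68* and *Emr1* were bright on every array, *Msr1*, the scavenger receptor for acetylated LDL, was detected on no array and *Marco* on 1 array. An undetected probe does not show that its transcript is absent from the cells. Fibroblast and mesothelial markers were also present, with 8 of 9 tested, among them the matrix proteoglycan *Dcn* and *Upk3b*. Of 12 neutrophil symbols, 8 were detected on no array, including *S100a9*, *Mpo* and *Camp*. All 8 eosinophil and mast cell symbols were detected on no array.

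A probe was tested where it was detected on at least 4 of the 8 arrays, which left 17122 probes. Of the 17 probes for the 10 genes, 11 probes for 8 genes were tested, and 9 were detected on all 8 arrays. *Mmp8*, the neutrophil collagenase, was detected on 0 arrays with values of 4.23 to 4.39. *Mmp19* was detected by its better probe on 2 arrays, both controls, with values of 4.41 to 4.93. Neither gene could be compared at this sensitivity. The threshold fell between 2 probes for *Mmp13*, of which ILMN_2799267 was detected on 4 arrays and was kept, and ILMN_1249336 was detected on 3 arrays and was not.

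The tested members spanned a wide range of brightness. *Mmp12*, the macrophage metalloelastase, gave the brightest probe with a mean deposited signal of 7072 intensity units and a mean log2 intensity of 12.72 ± 0.35 (SD, n = 8). It was above 98.4% of the tested probes. *Timp2*, which inhibits MMPs and also takes part in the activation of pro-MMP2 by MMP14, followed at 12.20 ± 0.13. *Mmp14*, the membrane-type collagenase, lay at 11.99 ± 0.32. *Mmp12* was above *Timp2* on 8 of 8 arrays, while *Timp2* was above *Mmp14* on 5 of 8 arrays with a gap of 0.21, less than the SD of *Mmp14*. In control sample 2 *Mmp14* (12.30) was above *Mmp12* (12.22).

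A middle group held *Mmp13* (collagenase 3) at 9.47 ± 0.46, *Adam8* at 9.16 ± 0.33 and *Adam17* at 8.90 ± 0.12. Their order was not fixed. *Mmp13* was above *Adam8* on 6 of 8 arrays and *Adam8* above *Adam17* on 5 of 8, and both gaps (0.30 and 0.26) were smaller than the SD of *Adam8*. *Mmp9*, gelatinase B, was 7th on every array at 7.37 ± 0.82. *Mmp27*, a less studied MMP of the stromelysin type, was 8th on every array at 5.38 ± 0.50, with a mean deposited signal of 67.8. Probes bind with different strength, so this is an order of signals and not of transcript amounts. The 2 probes for *Adam17* differed on the same arrays, with means of 8.90 and 7.02.

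**Figure D1:**
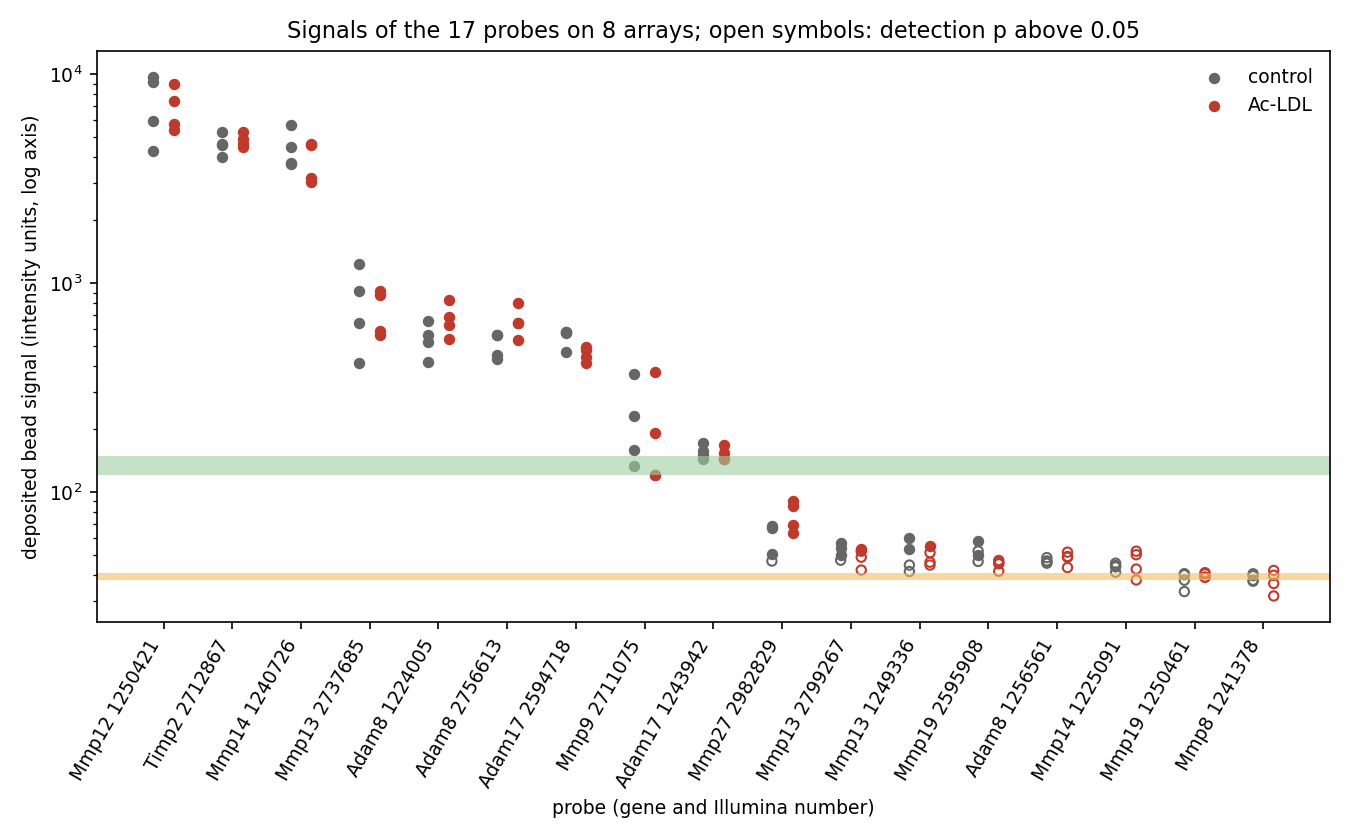
Deposited signal (intensity units, log axis) of each of the 17 probes on the 4 control (grey) and 4 Ac-LDL (red) arrays, with open symbols for a detection p above 0.05; the green band spans the arrays' median signal of detected probes (121 to 149) and the yellow band that of undetected probes (38.0 to 40.8). *Mmp12*, *Timp2* and *Mmp14* lay far above both bands, and *Mmp27* lay between them.

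*Adam8* was read by 2 working probes near the same place on chromosome 7, in coordinates whose build the file does not name. They share 28 of their 50 bases, at chr7:147165882-147165909 in those coordinates, so they are not independent measurements. The shared stretch is shown because both *Adam8* values rest on it, in lower case as no base is singled out.
*Adam8* shared probe stretch: gacaccaccagtcaagcccgggactgga

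On the brighter *Adam8* probe, ILMN_1224005, the control samples 1 to 4 read 8.74, 8.79, 9.22 and 8.91. The Ac-LDL samples 1 to 4 read 9.15, 9.32, 9.68 and 9.48. The highest control value, of sample 3, was above the lowest Ac-LDL value, of sample 1, so the groups overlapped, but within each number the Ac-LDL sample was higher by 0.41 to 0.56. The means were 8.92 ± 0.22 and 9.41 ± 0.22 (SD, n = 4), a log2 difference of 0.49 (SE 0.14) or 1.40-fold. The difference was 0.47 within slide 1 and 0.51 within slide 2.

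On the second *Adam8* probe, ILMN_2756613, the controls read 8.47, 8.90, 8.99 and 8.90 and the Ac-LDL samples 9.14, 9.36, 9.63 and 9.37. Here every Ac-LDL sample was above every control. The means were 8.82 ± 0.23 and 9.38 ± 0.20 (SD, n = 4), a log2 difference of 0.56 (SE 0.14) or 1.47-fold, and the pair differences were 0.46 to 0.67. By size of increase the 2 probes ranked 53rd and 90th of 17122. The remaining *Adam8* probe, ILMN_1256561, which was designed on a cDNA clone, was detected on 0 arrays.

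*Mmp27* had the largest log2 difference of the members. Control samples 1 to 4 read 4.53, 4.86, 5.29 and 5.32 and Ac-LDL samples 5.48, 5.61, 5.85 and 6.09, with no overlap between the groups. The means were 5.003 ± 0.38 and 5.76 ± 0.27 (SD, n = 4), a difference of 0.75 (SE 0.19) or 1.69-fold, which ranked 13th of all tested probes. The gene lay close to the detection limit: its deposited signals were 46.7, 50.4, 67.1 and 69.0 in controls and 63.5, 69.5, 86.1 and 90.0 with Ac-LDL. It was not detected in control sample 1. Its log2 difference was 0.48 without background correction and 0.41 with an offset of 50 in place of 16 added after the correction.

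*Timp2* read 12.01, 12.13, 12.08 and 12.19 in the controls and 12.30, 12.33, 12.38 and 12.22 with Ac-LDL. The groups did not overlap, and the closest values were those of sample 4. The difference was small at 0.20 (SE 0.09), or 1.15-fold, and median scaling in place of quantile normalization brought it to 0.09.

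The members were chosen with this contrast known, so counts of calls among them are given as a description and nothing is read from them. A probe was called at a Benjamini-Hochberg adjusted p under 0.05 in limma. In the fit without a block, 7 of 17122 probes (0.0409%) were called and 0 of the 11 member probes, of which 4 had an unadjusted p under 0.05, as did 891 of all tested probes (5.2%). The methods' t-test, unpaired, also called 0 member probes after adjustment, with 4 at an unadjusted p under 0.05 beside 1039 of all tested probes (6.07%). Samples with the same number deviated together. When the fit held the replicate number as a block, 76 probes (0.444%) were called. They included 3 member probes, both of *Adam8* and that of *Mmp27*. When the slide was blocked instead, 55 probes (0.321%) were called, among them *Mmp27* alone of the members. Every Ac-LDL sample was above every control for 2.11% of the tested probes and for 3 member probes (*Adam8* ILMN_2756613, *Mmp27* and *Timp2*), and below every control for 1.68% and for 0 member probes. The Ac-LDL sample was higher in all 4 pairs for 11.5% of the tested probes and for 5 member probes, and lower in all 4 for 10.3% and 1 member probe, that of *Mmp9*.

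**Figure D2:**
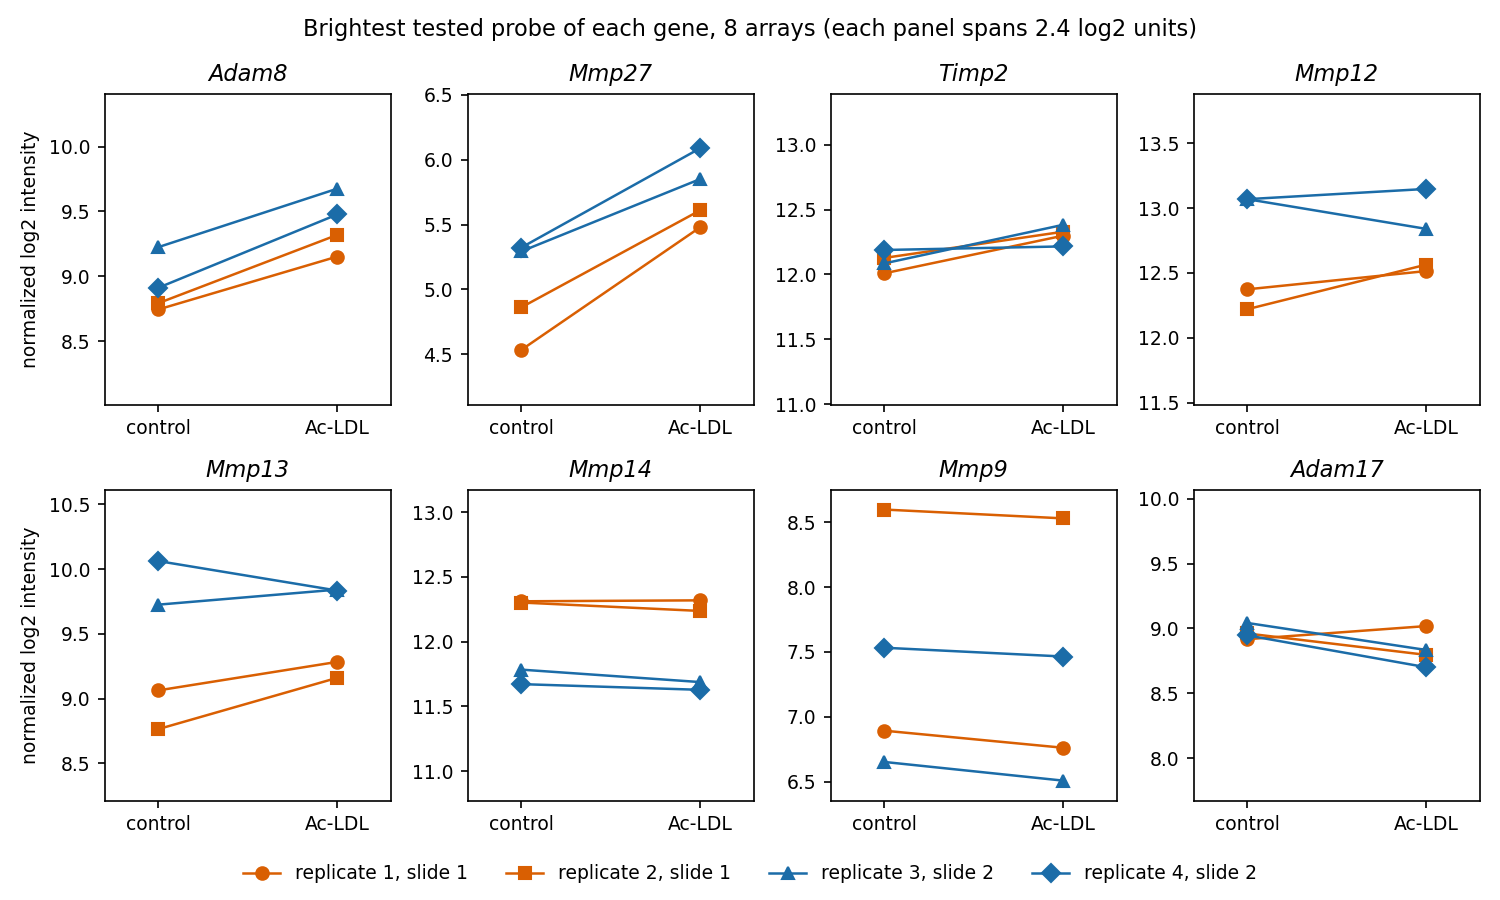
Normalized log2 intensity of the brightest tested probe of each of 8 genes in the 4 control and 4 Ac-LDL samples, with lines joining samples of the same number, colours giving the slide, and y axes that cover the same span at different heights. The lines of *Adam8* and *Mmp27* all rose from control to Ac-LDL, and those of *Mmp9* ran nearly level at widely different heights.

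The few neutrophil markers that were detected had higher signal with Ac-LDL. Over the 3 tested neutrophil symbols of 12 on the array, the summed normalized intensity was 620 to 670 in controls and 732 to 792 with Ac-LDL, mostly from *S100a8*, at 9.20 in controls and 9.44 with Ac-LDL. All 3 had higher means with Ac-LDL, none called. *S100a8* differed by 0.24 and the receptor *Csf3r* by 0.28, both higher in 4 of 4 pairs, as were 11.5% of all tested probes. The granule gene *Ltf*, detected on 4 arrays, differed by 0.20. The other 9 symbols were not tested, with *Ela2* detected on 1 array and 8 on no array, namely *S100a9*, *Mpo*, *Camp*, *Ngp*, *Retnlg*, *Il8rb*, *Lcn2* and *Padi4*. The part of neutrophil RNA in the *Adam8* and *Mmp27* values was not tested. The 3 tested lymphocyte symbols of 9 all had lower means with Ac-LDL, none called, with a median difference of -0.18. Their sums overlapped, at 115 to 319 in controls and 102 to 234 with Ac-LDL. The macrophage marker sums of the 2 groups overlapped, at 72500 to 86555 in controls and 75836 to 86480 with Ac-LDL. They came mostly from *Lyz* and *Lyz2*, at 14.97 and 14.73 in controls, so they say little of the other symbols. Of the 10 tested, 6 had higher and 4 lower means with Ac-LDL, with a median difference of 0.04. *Fcgr1* (0.61) and *Mertk* (0.56) were higher in 4 of 4 pairs and *Cd14* (-0.48) in 0 of 4, none called in the unblocked fit. In bulk RNA, fewer cells of a type and less RNA per cell cannot be told apart.

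For the other proteases the Ac-LDL differences were within the spread of the samples. *Mmp12* read 12.37, 12.22, 13.07 and 13.07 in controls and 12.51, 12.56, 12.84 and 13.15 with Ac-LDL, a difference of 0.08 (SE 0.22). *Mmp13*, on probe ILMN_2737685, read 9.06, 8.77, 9.73 and 10.06 in controls and 9.28, 9.16, 9.84 and 9.83 with Ac-LDL, a difference of 0.13 (SE 0.28). For both genes samples 3 and 4 were high and samples 1 and 2 low, whatever the treatment. The differences were 0.24 and 0.31 within slide 1 and -0.08 and -0.06 within slide 2. The dim second *Mmp13* probe gave -0.07, and 3 of the 4 arrays that detected it were controls.

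*Mmp14* read 12.31, 12.30, 11.78 and 11.67 in controls and 12.32, 12.24, 11.69 and 11.63 with Ac-LDL, a difference of -0.05 (SE 0.21). Its samples 1 and 2 were high and 3 and 4 low in both groups. *Adam17*, which releases TNF from the cell surface, gave probes that went opposite ways: ILMN_2594718 read 8.97 ± 0.05 in controls and 8.84 ± 0.13 with Ac-LDL (SD, n = 4; difference -0.13, SE 0.10), and the dimmer ILMN_1243942 read 6.96 ± 0.11 and 7.07 ± 0.06 (difference 0.11, SE 0.09). No direction is given for *Adam17*.

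*Mmp9* varied more between sample numbers than any other member. Control samples 1 to 4 read 6.89, 8.60, 6.65 and 7.53, and Ac-LDL samples 1 to 4 read 6.76, 8.53, 6.51 and 7.46. Sample 2 was highest and sample 3 lowest in both groups, and the Ac-LDL sample was lower than its control by 0.07 to 0.14. The mean difference was -0.10, with an SE of 0.49 in the unblocked fit and 0.08 when the replicate number was blocked. The SD of the 4 pair means was 0.887, ranked 32nd of 17122 probes (the median over probes was 0.144), while the SD of the 4 pair differences was 0.041. Between the 2 slides *Mmp9* differed by -0.66 (adjusted p = 0.307), since the high samples 2 and 4 lay on different slides. That difference rested on single numbers: it was -1.52 without both samples numbered 1 (adjusted p = 0.0263), 0.21 without those numbered 2 (adjusted p = 0.657), -0.19 without those numbered 3 (adjusted p = 0.83) and -1.12 without those numbered 4 (adjusted p = 0.204). Lymphocyte marker sums, over 3 of 9 symbols, also differed between numbers, at 115, 271, 319 and 218 in controls 1 to 4 and 102, 234, 153 and 158 in Ac-LDL samples 1 to 4. Sample 3 had the highest sum in controls and sample 2 with Ac-LDL. The part of other cells in the *Mmp9* values was not tested.

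The slide contrast was not used to choose the members, and it was tested with group as a term. That fit took all arrays of a slide as independent. Each slide held only 2 sample numbers, and same-numbered samples deviated together. Its standard errors and adjusted p-values can therefore be too small, over all probes as well as for the members. Over all probes 4042 of 17122 (23.6%) were called between slides, 2005 higher and 2037 lower on slide 2. Of the 11 member probes 5 were called, for *Mmp13*, *Mmp12*, *Mmp27* and *Adam8* (higher on slide 2) and *Mmp14* (lower). The median absolute slide difference was 0.320 over the member probes and 0.169 over all tested probes.

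*Mmp13* rose from 9.07 on slide 1 to 9.87 on slide 2, a difference of 0.80 (SE 0.12, adjusted p = 0.00189 in limma). *Mmp12* rose from 12.42 to 13.03, a difference of 0.61 (SE 0.10, adjusted p = 0.00312). *Mmp14* fell from 12.29 to 11.69, a difference of -0.60 (SE 0.07, adjusted p = 0.00114). For all 3 genes the 4 arrays of one slide stood apart from the 4 of the other, and they were called under every alternative run, with each sample or number left out included. Those runs took the arrays as independent too. *Mmp27* differed by 0.52 (SE 0.10, adjusted p = 0.00641), and lost the call without both samples numbered 1 (adjusted p = 0.0597) or numbered 4 (adjusted p = 0.06), and by the methods' t-test (adjusted p = 0.315). *Adam8* on ILMN_1224005 differed by 0.32 (adjusted p = 0.0356). That call was lost without control sample 1 (0.0832), 2 (0.0717) or 3 (0.111), without Ac-LDL sample 1 (0.0931) or 3 (0.0691), without both samples numbered 1 (0.2), 2 (0.0883) or 3 (0.206), without the detection filter (0.066) and by the methods' t-test (0.351), each value being an adjusted p. The second *Adam8* probe, ILMN_2756613, differed by 0.26 and was not called between slides (adjusted p = 0.122). *Timp2* differed by 0.03 between slides (adjusted p = 0.834).

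Macrophage marker signal differed between the slides too, in the same fit, in which 23.6% of all tested probes were called. The macrophage marker sum was 72500 to 76894 on slide 1 and 83908 to 86555 on slide 2, and 5 of the 10 tested macrophage symbols were called higher on slide 2 with 0 lower. The lysozyme symbols *Lyzs*, *Lyz2* and *Lyz* were counted apart. Of these *Lyzs* was called (0.61), and *Lyz2* (0.14) and *Lyz* (0.04) were not. The fibroblast and mesothelial sum was 15369 to 17901 on slide 1 and 12802 to 15950 on slide 2, so the slides overlapped. Of its 8 tested symbols *Col1a1* (-0.41) and *Lum* (-0.99) were called lower on slide 2 and 0 higher, and the largest difference upwards, not called, was that of *Col3a1* (0.29). The part of the cell makeup in the slide differences of the proteases was not tested.

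**Figure D3:**
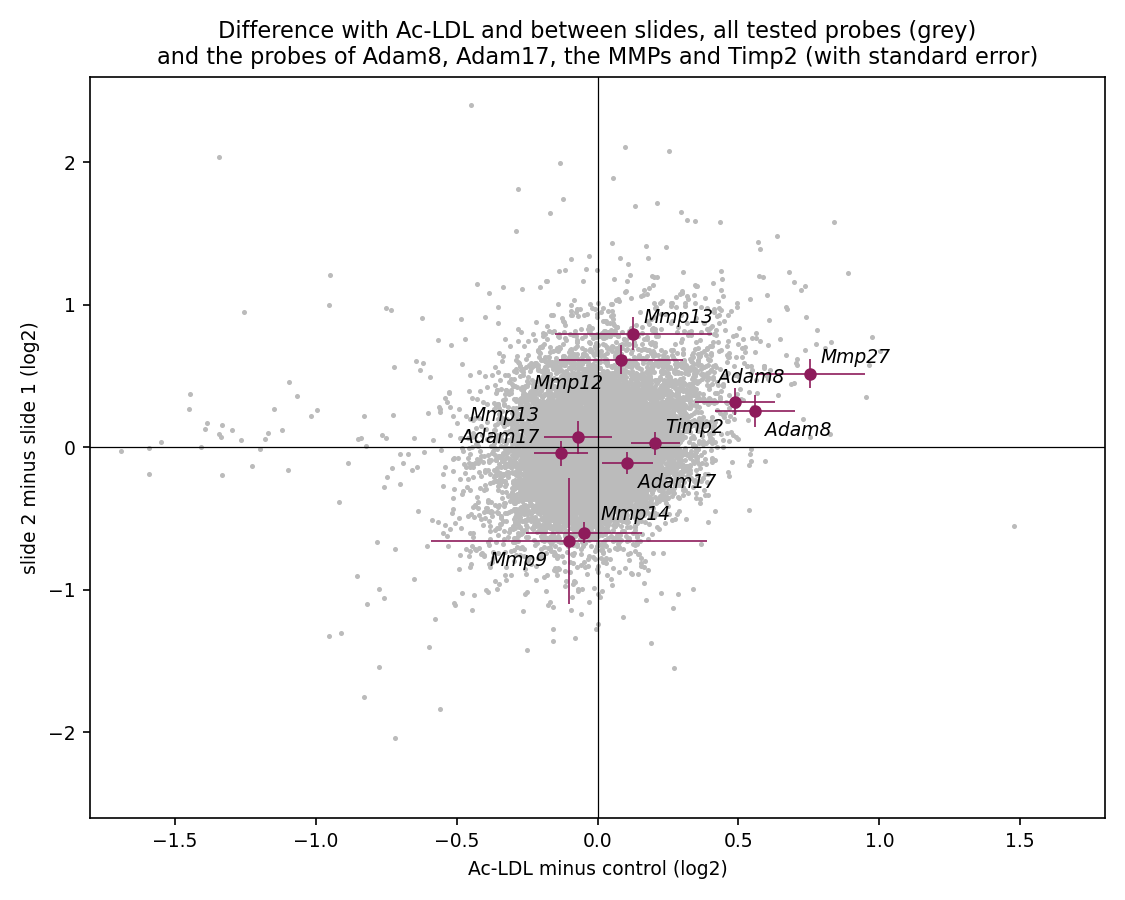
Log2 difference with Ac-LDL (x axis) and between slides (y axis) for the 17122 tested probes in grey, less 1 probe beyond the axes, and for the member probes in colour with standard errors. *Adam8* and *Mmp27* lay to the right, *Mmp12* and *Mmp13* at the top near 0 on the x axis, and *Mmp14* and *Mmp9* at the bottom.

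*Mmp13*, *Mmp12*, *Mmp8* and *Mmp27* belong to a run of 10 neighbouring MMP genes on chromosome 9, in the order *Mmp13*, *Mmp12*, *Mmp1b*, *Mmp3*, *Mmp1a*, *Mmp10*, *Mmp8*, *Mmp27*, *Mmp20* and *Mmp7* (RefSeq, GRCm38.p6). The neighbours *Mmp12* and *Mmp13* had mean-centred profiles that differed by a root mean square of 0.160 over the 8 arrays, against 0.123 between the 2 probes of *Adam8*. The median difference of all other tested probes from *Mmp13* was 0.460, and 51 probes (0.298%) were nearer to it than *Mmp12*. Of the other tested genes of the run, *Mmp27* was also called higher on slide 2 (0.52). *Mmp3* (-0.12), *Mmp1a* (-0.20) and *Mmp10* (-0.37) had lower means on slide 2, none called. The profiles of *Mmp27* and *Adam8* differed by a root mean square of 0.235.

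The 250 bases upstream of the annotated start were read from RefSeq for 8 of the 10 genes, all but *Mmp9* and *Mmp19*. They were searched on both strands for the AP-1 motif TGANTCA, which binds the Fos and Jun proteins and is known from collagenase promoters, and the ETS-type PEA3 motif AGGAAG. AP-1 was found in 6.75% of 32851 mouse promoters of this length and PEA3 in 29.5%. Among the members, AP-1 was found in *Mmp13*, 35 bases before the start, and at the downstream of the 2 annotated starts of *Mmp12*, 44 bases before it. PEA3 was found in *Mmp13* at 109 and 62 bases before the start, and also in *Mmp8*, *Mmp14*, *Adam17* and the upstream start of *Mmp12*. The DR1 element bound by PPARs, AGGTCA repeated after 1 base, was in 0.0335% of promoters and in 0 of the members. These motifs do not overlap one another in the sequences printed. A match is a run of letters and not a measured binding site, and a missing match holds for this window only. The windows are shown for the 2 neighbours with like profiles and for the 2 genes with the largest differences with Ac-LDL, 5′ to 3′ on the gene's strand, with the AP-1 motif in capitals.
*Mmp13*, chr9:7272264-7272513 (+): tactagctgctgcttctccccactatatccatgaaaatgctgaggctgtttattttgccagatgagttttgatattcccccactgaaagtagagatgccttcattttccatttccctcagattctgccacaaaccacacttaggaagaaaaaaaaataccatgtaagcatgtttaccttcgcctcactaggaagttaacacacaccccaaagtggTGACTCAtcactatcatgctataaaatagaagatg
*Mmp12*, downstream start, chr9:7347124-7347373 (+): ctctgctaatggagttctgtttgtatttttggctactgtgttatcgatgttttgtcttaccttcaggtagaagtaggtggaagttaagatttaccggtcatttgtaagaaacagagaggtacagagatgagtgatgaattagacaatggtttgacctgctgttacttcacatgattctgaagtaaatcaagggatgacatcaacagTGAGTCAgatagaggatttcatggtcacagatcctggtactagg
*Mmp27*, chr9:7571146-7571395 (+): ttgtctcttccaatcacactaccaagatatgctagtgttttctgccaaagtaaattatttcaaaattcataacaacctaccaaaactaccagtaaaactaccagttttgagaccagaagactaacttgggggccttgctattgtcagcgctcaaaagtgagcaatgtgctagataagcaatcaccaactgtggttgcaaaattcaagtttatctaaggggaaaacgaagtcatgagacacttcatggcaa
*Adam8*, chr7:139992563-139992812 (-): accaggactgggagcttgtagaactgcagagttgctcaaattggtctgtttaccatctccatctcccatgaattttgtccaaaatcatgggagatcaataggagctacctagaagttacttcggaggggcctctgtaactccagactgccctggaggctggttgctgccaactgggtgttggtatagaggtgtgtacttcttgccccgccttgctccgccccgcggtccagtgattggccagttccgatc

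The 5 genes whose mean-centred profile over the 8 arrays was nearest to that of *Adam8* were *B3galnt1* (root mean square difference 0.083), *B4galt6* (0.090), *Slc27a1* (0.098), *Hpcal1* (0.108) and *Ifi30* (0.109). *B3galnt1* and *B4galt6* are glycosyltransferases that act on glycolipids, *Slc27a1* is a fatty acid transport protein, *Hpcal1* is a neuronal calcium sensor family member and *Ifi30* is a lysosomal thiol reductase. All 5 were nearer to ILMN_1224005 than the second *Adam8* probe was (0.123).

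The rest of the pathway was described with gene lists. Slide counts in the lists stand beside 23.6% of all tested probes called between slides. They come from the same fit, which took all arrays of a slide as independent. In the Ac-LDL contrast 64 list genes were tested, members included, and 0 were called without a block or by the methods' t-test. Of them 6 had an unadjusted p under 0.05: *Mmp27*, *Adam8*, *Timp2*, *Rhbdf2*, *Mertk* and *Ets2*. The first 3 are members, chosen with this contrast known, which leaves 3 of 56 other list genes beside 5.2% of all tested probes. When the replicate number was blocked 3 were called, *Mmp27*, *Adam8* and *Mertk*.

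Of 23 MMP symbols on the array 14 were tested. With Ac-LDL 7 were higher and 7 lower, and their median log2 difference was -0.01, beside 0.00122 over all tested probes. The stromelysins *Mmp3* and *Mmp10* differed by -0.32 and -0.24 and the gelatinase *Mmp2* by -0.21, none called. With samples left out in turn these ranged from -0.45 to -0.20, -0.38 to -0.11 and -0.33 to -0.09. *Mmp10* and *Mmp2* were nearest 0 without control sample 1, and *Mmp3* without both samples numbered 1. Between slides 4 MMPs were called higher and 1 lower on slide 2. The 4 were *Mmp12*, *Mmp13*, *Mmp27* and *Mmp24* (0.40, adjusted p = 0.0211).

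Of 29 ADAM symbols 8 were tested, 5 higher and 3 lower, with a median of 0.12. *Adam15* differed by 0.25 and *Adam23* by -0.34, neither called. *Adam15* was 0.12 without Ac-LDL sample 3, and *Adam23* was -0.18 without Ac-LDL sample 4 and -0.57 without Ac-LDL sample 1. Between slides *Adam8*, *Adam15* (0.56, adjusted p = 0.00252) and *Adam9* (0.53, adjusted p = 0.0127) were called higher and *Adam12* (-0.88, adjusted p = 0.00115) lower on slide 2. Of 18 ADAMTS symbols 7 were tested, 4 higher and 3 lower, with a median of 0.01. Between slides 1 was called higher and 3 lower, among them *Adamts2*, the procollagen N-proteinase (-0.72, adjusted p = 0.00136).

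Among inhibitors and partners 10 of 17 symbols were tested, 5 higher and 5 lower, with a median of -0.01. The inhibitor *Timp1* differed by -0.48 (SE 0.36) and was not called, at -0.19 without control sample 1 and -0.72 without control sample 4. It was the member of this list called between slides, at -1.03 (adjusted p = 0.00172), in contrast to *Timp2* at 0.03. *Rhbdf2*, which carries ADAM17 to the cell surface, differed by -0.39 and *Timp3*, an inhibitor of ADAM17, by -0.21 (-0.13 without control sample 4). *Rhbdf2* was dim, at 5.23 in controls and 4.84 with Ac-LDL, and was detected on 7 arrays. Its difference was -0.23 without background correction and -0.19 with an offset of 50.

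Of 23 membrane proteins known to be shed, 15 were tested, 7 higher and 8 lower, with a median of -0.02. *Mertk*, the receptor for apoptotic cells that ADAM17 sheds, was at 8.01 ± 0.35 in controls and 8.58 ± 0.29 with Ac-LDL (SD, n = 4), a difference of 0.56 (SE 0.19) that was higher in 4 of 4 pairs. Its adjusted p was 0.817 in the unblocked fit, 0.0364 when the replicate number was blocked and 0.166 when the slide was. *Selplg*, the P-selectin ligand, differed by 0.43, *Il6ra* by 0.34, *Tnf* by -0.31 and *Vcam1* by -0.27, none called. Without control sample 1 *Selplg* was 0.21, *Il6ra* 0.17 and *Vcam1* 0.03. *Tnf* was dim, at 5.36 in controls and 5.05 with Ac-LDL, and its difference ranged from -0.43 to -0.16 over the alternatives. Between slides 7 were called higher and 2 lower on slide 2, beside 23.6% of all tested probes called either way.

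The list of AP-1 and ETS factors held 12 symbols on the array, among them *Runx2*, which is of neither family and was detected on no array. Of the 12, 10 were tested, 6 higher and 4 lower, with a median of 0.02. *Fos* differed by 0.37 and *Ets2* by -0.35 with Ac-LDL, neither called. Between slides 3 were called higher, among them *Fos* (0.52, adjusted p = 0.00935), and 0 lower.

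**Figure D4:**
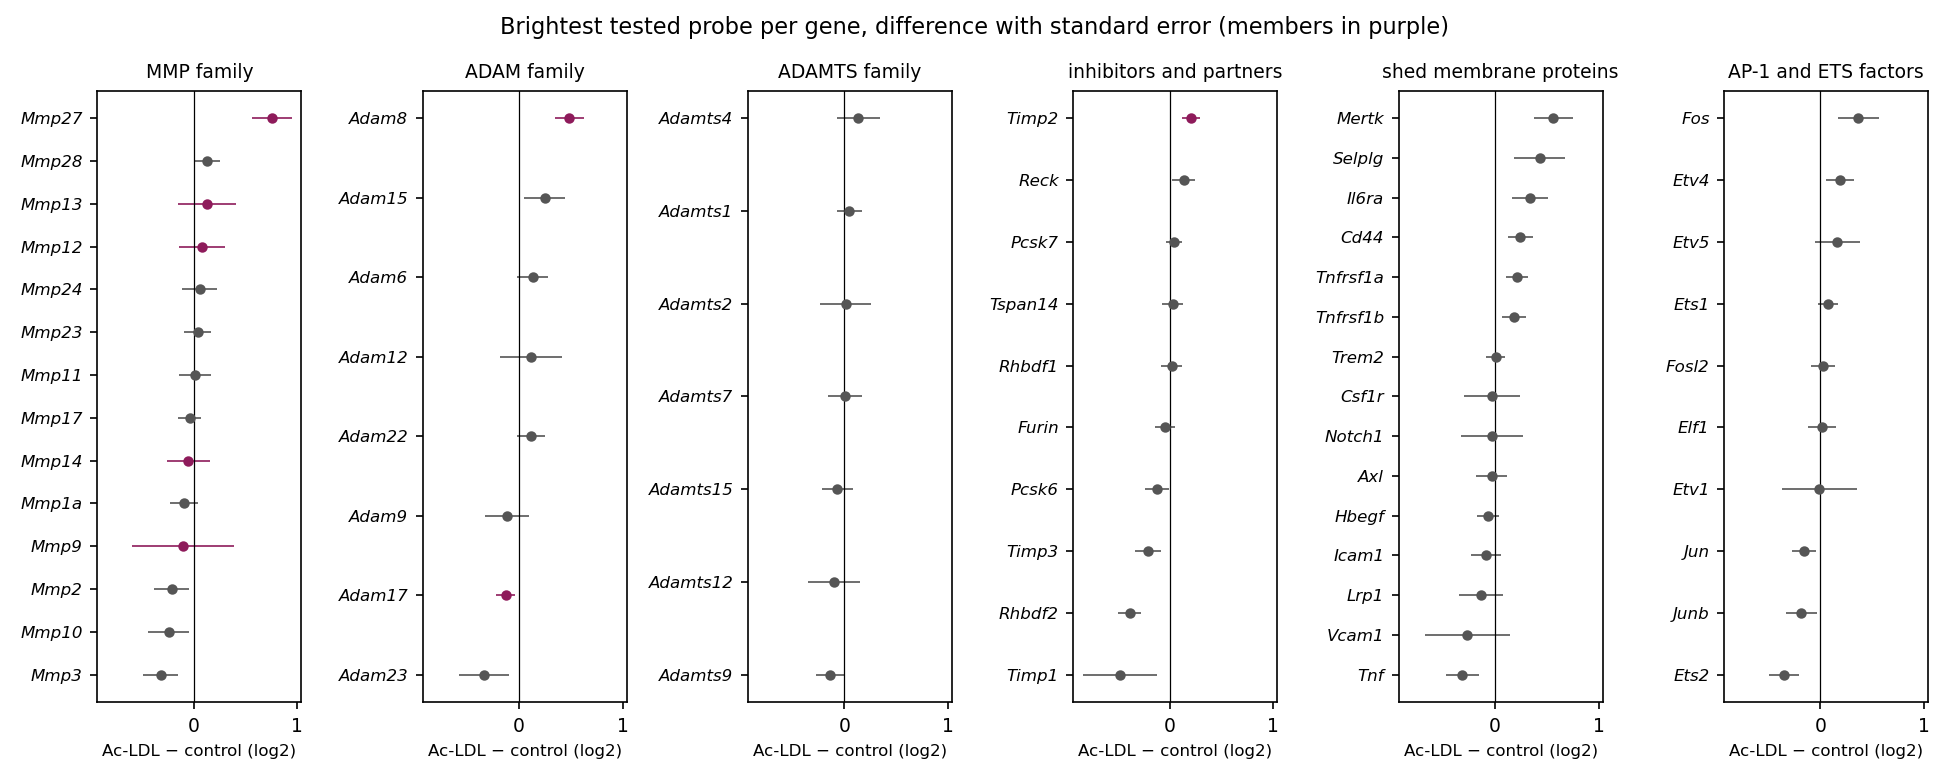
Log2 difference between Ac-LDL and control (x axis, with standard error) of every tested gene in 6 lists, a panel for each list and a row for each gene, with the members in purple. The points of each list lay on both sides of 0, and *Adam8*, *Mmp27* and *Mertk* were the points farthest to the right.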

How the data were processed

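RNA from 4 Ac-LDL and 4 control macrophage samples was read on Illumina Mouse WG-6 v2.0 arrays. The authors deposited, per probe and array, the mean bead intensity, neither background-corrected nor normalized, its detection p-value, bead standard error and bead number. The submitters' processing notes name BeadStudio. The genome build of the probe coordinates is not given in the sources used here.

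Intensities were background-corrected with normexp from the detection p-values (936 negative controls implied by their steps), offset by 16, quantile normalized and log2 transformed (neqc, limma 3.58.1, R 4.3.3). Probes detected (p at most 0.05) on at least 4 of 8 arrays were tested with lmFit and eBayes in 2 groups, without a block, with Benjamini-Hochberg adjustment over all tested probes. Several probes of a gene were kept apart, and the brightest tested probe stood for the gene in orders and lists. The slide was tested with group as a term. Groups came from the labels. Same-numbered samples were taken as pairs because their deviations from the group means correlated at 0.579, 0.479, 0.468 and 0.629. Samples of different number on the same slide correlated at 0.343, 0.429, 0.447 and 0.188, so the slide shares in these values. No 2 arrays held identical values.

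The members and gene lists were chosen with earlier results of these data known. Named were every member, and from each list the genes called with or without the replicate block and up to 3 with the largest differences each way, of at least 0.2. Genes like *Adam8* were ranked by the root mean square difference of mean-centred values. Each gene's symbol is the file's. Alternatives changed the blocking, background correction, offset, scaling, filter, variance prior, test or samples. The tests were run on simulated data with known differences. For the slide term these data left out the shared deviation of same-numbered samples. That run could not show whether the slide standard errors were too small. The number of arrays limits the precision.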

Additional observations from a re-analysis of the deposited data

How the results depend on the processing

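The number of probes called between Ac-LDL and control depended on the fit. It was 7 in the fit described, 76 with the replicate block, 55 with the slide block, 14 without background correction, 26 with median scaling, 15 with an intensity trend in eBayes, and 0 without the detection filter or by the methods' t-test. Leaving out samples from the unblocked fit gave 0 to 15. Member probes called were 0, but 3 with the replicate block (pairing by number) and 1 when the slide was blocked, and list genes called were likewise 0, 3 and 1. Both counts were 0 with any sample left out of the unblocked fit, and the blocked fits were not rerun with samples left out. Median scaling moved the median difference of all probes to -0.09. Over the alternatives the *Adam8* differences stayed at 0.36 to 0.59 and 0.43 to 0.64, *Mmp27* at 0.41 to 0.85 and *Timp2* at 0.09 (median scaling) to 0.26, while *Mmp12* (-0.07 to 0.22), *Mmp13* (-0.09 to 0.34), *Mmp14* (-0.17 to 0.06) and *Mmp9* (-0.51 to 0.29) took both signs. *Vcam1* reversed to 0.0325 without control replicate 1, within -0.61 to 0.0325 over the samples left out. Between slides 5 member probes were called, 3 by the methods' t-test without a term for group (*Mmp12*, *Mmp13* and *Mmp14*) and 4 to 5 with samples left out. The cause was not tested. Signals of *Mmp27*, near that of undetected probes, limit what can be said of it.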

Other observations

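Values near those of *Mmp9* were looked for after its profile had been seen. The probe whose mean-centred profile over the 8 arrays was nearest was that of *Cyp7b1*, an oxysterol 7-alpha-hydroxylase, with a root mean square difference of 0.407. Close behind came *Lum*, a collagen-binding proteoglycan of fibroblasts (0.421), the Ig kappa-like *LOC635815* (0.424), the complement gene *C4a* (0.426) and *Zbtb8* (0.446). The gene nearest to *Adam8* differed by 0.083, but the 2 values are not alike, since *Mmp9* had the wider spread (SD 0.82 against 0.33).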
